A study of Mus musculus with 13 samples.

Results

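The 10 genes described here belong to the NRF2 pathway, the main transcriptional defence of the liver against oxidants and reactive chemicals. They were chosen by name from knowledge of that pathway, but with earlier results of these data known, so counts among them are descriptions. They are the regulators Nfe2l2 and Keap1, and the target genes Nqo1, Gclc, Gclm, Txnrd1, Srxn1, Hmox1, Gsr and Slc7a11. All 10 were measured, each by 1 probe set, among 19938 named genes. The livers came from 6 male C57BL/6N wild-type mice injected with streptozotocin (STZ), a toxin that destroys the insulin-producing beta cells and so induces type 1 diabetes, and from 7 male C57BL/6N wild-type mice that were mock-injected with citrate buffer. The injections went into the abdomen, at 65 mg/kg of STZ daily for 5 days, when the mice were 10 to 16 weeks of age. Livers were collected 9 to 11 weeks afterwards, and both groups were 5 to 6 months old. The controls are called standard-diet animals in the design text and mock-injected in the sample labels, and no blood glucose or insulin value was among the sources used here. Total RNA was hybridised to 1 Affymetrix array per mouse, and the values are log2 intensities, in which a difference of 1 is a doubling of signal.

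NRF2, the protein of Nfe2l2, is a transcription factor that is held in the cytoplasm and marked for degradation by KEAP1. Oxidants and electrophiles modify cysteines of KEAP1, NRF2 then escapes degradation, enters the nucleus, pairs with small MAF proteins and binds antioxidant response elements near its target genes. The control is therefore largely at the level of the protein, and the messenger RNA of Nfe2l2 is not a direct reading of its activity. The targets make and recycle glutathione and thioredoxin, reduce quinones and break down heme, and in liver they are known for protection against paracetamol and other drugs. Several of them also answer to other factors, as Slc7a11 does to ATF4, Nqo1 to the aryl hydrocarbon receptor and Hmox1 to heme through BACH1.

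The sequence before the transcription start of the members shows where such elements could lie, and it was taken from RefSeq (GRCm38.p6), which gave a start region for 7 of the 10 members and 9 start sites in all, of which 3 belonged to Txnrd1. In the 250 bases before each start, 3 motifs were searched on both strands: TGACNNNGC, the core of the antioxidant response element, TGANTCA, the core shared by AP-1 and MAF factors, and TGATGCAAA, an amino acid response element bound by ATF4. The first and the second motif can overlap in a single stretch, but no match in the members did so. TGACNNNGC was present before the starts of Nfe2l2, Gclm and 1 Txnrd1 start, against 10.2% of all 32851 start regions. TGANTCA was present in 6.75% of all regions and, among the members, in 1, that of Srxn1, which held it at 2 places. TGATGCAAA was present in 0.225% of all regions and, among the members, in 1, that of Slc7a11, which held it at 2 places, once on each strand. The upstream sequences of 5 members are shown because they include the member with the largest difference, Nqo1, a second member that rose, Srxn1, and 3 that did not pass the test, 5′ to 3′ in the direction of the gene with the matches in capitals.
Nqo1, chr8:107403206-107403455, minus strand: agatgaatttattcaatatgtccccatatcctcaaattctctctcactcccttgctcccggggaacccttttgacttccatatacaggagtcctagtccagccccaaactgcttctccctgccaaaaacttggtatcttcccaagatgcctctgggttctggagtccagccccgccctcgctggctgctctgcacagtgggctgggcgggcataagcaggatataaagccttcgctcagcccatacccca
Srxn1, chr2:152105274-152105523, plus strand: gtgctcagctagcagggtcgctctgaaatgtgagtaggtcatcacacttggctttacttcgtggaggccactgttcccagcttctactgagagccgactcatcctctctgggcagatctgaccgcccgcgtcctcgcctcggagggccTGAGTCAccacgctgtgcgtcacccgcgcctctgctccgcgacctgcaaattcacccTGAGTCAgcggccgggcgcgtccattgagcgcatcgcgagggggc
Txnrd1, chr10:82858956-82859205, plus strand: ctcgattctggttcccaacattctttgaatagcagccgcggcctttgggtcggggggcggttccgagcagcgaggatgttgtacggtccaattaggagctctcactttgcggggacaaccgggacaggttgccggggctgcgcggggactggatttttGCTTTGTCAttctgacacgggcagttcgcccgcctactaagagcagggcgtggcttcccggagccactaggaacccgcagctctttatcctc
Gclm, chr3:122245307-122245556, plus strand: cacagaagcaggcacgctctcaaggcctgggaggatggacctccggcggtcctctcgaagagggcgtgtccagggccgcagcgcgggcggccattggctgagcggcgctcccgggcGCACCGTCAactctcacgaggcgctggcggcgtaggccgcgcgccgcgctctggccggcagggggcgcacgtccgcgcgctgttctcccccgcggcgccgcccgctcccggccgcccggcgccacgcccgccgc
Slc7a11, chr3:50443614-50443863, minus strand: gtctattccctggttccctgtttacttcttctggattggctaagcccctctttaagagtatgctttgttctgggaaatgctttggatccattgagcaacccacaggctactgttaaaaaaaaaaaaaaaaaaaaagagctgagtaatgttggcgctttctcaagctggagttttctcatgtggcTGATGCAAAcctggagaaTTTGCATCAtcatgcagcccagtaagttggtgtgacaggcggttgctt
In Nfe2l2, which also rose and whose sequence is not shown, the TGACNNNGC match began 240 bases before the start. In Srxn1 the matches began 102 and 45 bases before the start, and in Slc7a11 they began 66 and 48 bases before it. The Srxn1 match at 45 bases is followed by GC, and this stretch differs from TGACNNNGC only in the G after TGA. Such a variant of the core was not searched. Nqo1 held none of the 3 motifs in this window, which reaches only 250 bases and says nothing of elements farther away. The Slc7a11 start used here lies inside the annotated span of the gene, which has other starts. So does the Txnrd1 start whose sequence is shown. The Gclm window ends at 122245556, past the beginning of the annotated span at 122245487, so the end of that sequence lies within the span. A match is a stretch of letters and not evidence of binding.

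Of the 10 members, 5 were higher in STZ livers, 0 were lower and 5 did not pass, with the moderated test of limma at a Benjamini-Hochberg adjusted p under 0.05 over all 19938 genes. Across all genes, 5.09% were called higher and 4.04% lower, 9.12% in either direction. The 5 members were Nqo1, the quinone reductase, Srxn1, sulfiredoxin, Hmox1, heme oxygenase 1, Gsr, glutathione reductase, and Nfe2l2 itself. The median difference of the 10 members was 0.29 on the log2 scale, against -0.01 over all genes. The values of the groups did not overlap for 3 members, Nqo1, Srxn1 and Gsr, all with the STZ arrays above the controls, against 2.3% of all genes in that direction, 1.56% in the opposite direction and 3.86% in either. Keap1, Slc7a11 and both subunits of glutamate-cysteine ligase, Gclc and Gclm, had 95% intervals that include 0, that of Gclc reaching 0.34. Txnrd1 lay just outside the threshold.

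**Figure D1:**
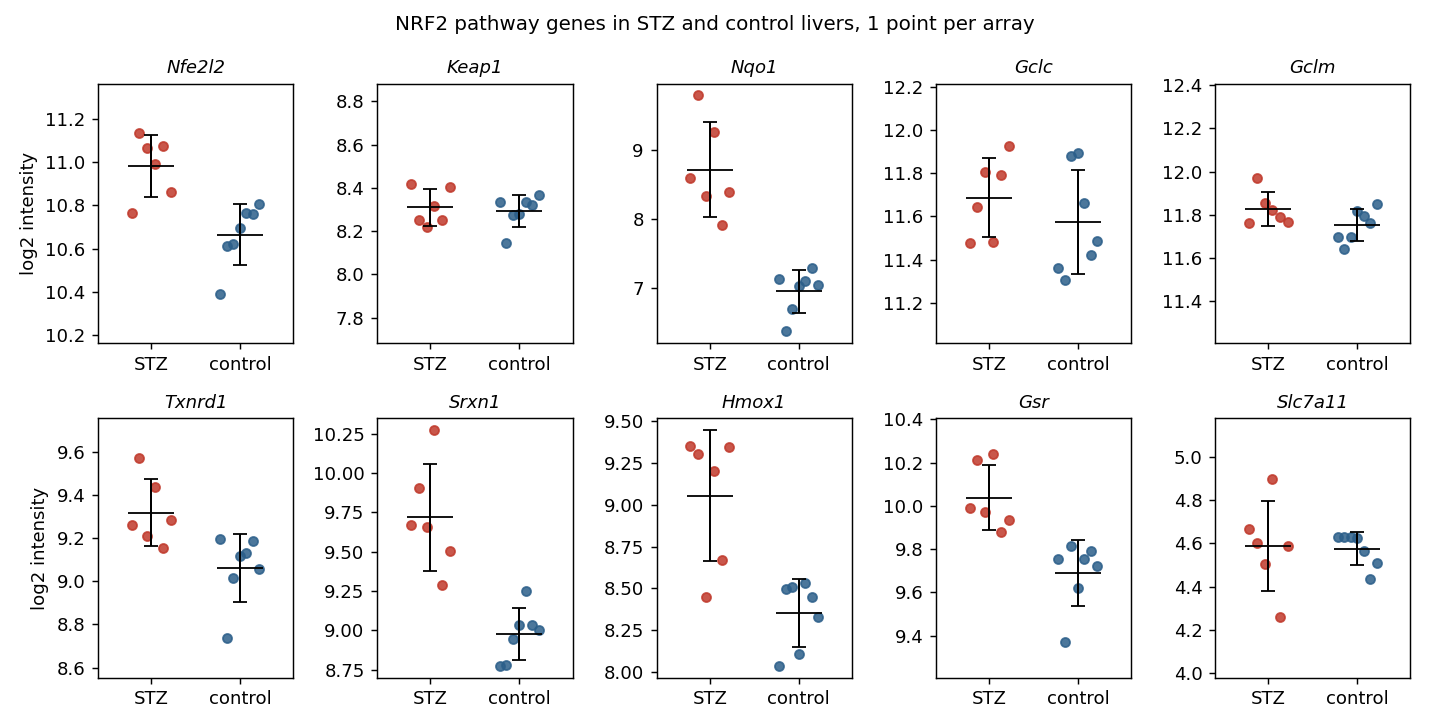
Log2 intensity of the 10 NRF2 pathway genes, 1 point per array, in 6 STZ and 7 control livers, with the group mean and SD in black; each panel has its own axis. Nqo1, Srxn1 and Gsr show STZ points wholly above the control points, while the points of Keap1, Gclc, Gclm and Slc7a11 overlap widely.

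Of the 2 regulators, the messenger RNA of NRF2 itself rose and that of its inhibitor did not pass the test. Nfe2l2 (chr2:75675513-75704663) had log2 intensities of 10.763 to 11.137 with a median of 11.027 in STZ livers and of 10.390 to 10.807 with a median of 10.695 in control livers. STZ replicate 1, at 10.763, lay within the control range, and the other 5 STZ arrays lay above all controls. The difference was 0.32 ± 0.08 (SE of the fit, as for all differences below), a 1.25-fold higher signal, with an adjusted p of 0.0130 in limma. Keap1 (chr9:21229730-21239332), the inhibitor, had 8.221 to 8.419 with a median of 8.284 in STZ livers and 8.146 to 8.369 with a median of 8.319 in control livers. The ranges overlapped, with STZ replicates 1 (8.419) and 6 (8.406) above all controls. The Keap1 difference was 0.02 ± 0.05 with a 95% interval of -0.10 to 0.13 and an adjusted p of 0.917 in limma.

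Nqo1 (chr8:107388225-107403205), which encodes the enzyme that reduces quinones with 2 electrons and is the customary index of NRF2 activity in mouse tissue, showed the largest difference among the members. Its values were 7.912 to 9.794 with a median of 8.497 in STZ livers and 6.374 to 7.286 with a median of 7.049 in control livers. All 6 STZ arrays lay above all 7 controls, and STZ replicates 2 (9.794) and 4 (9.259) were the highest. The means were 8.72 ± 0.69 (SD, n = 6) in STZ livers and 6.95 ± 0.31 (SD, n = 7) in control livers, so the arrays of STZ livers were also more spread. The difference was 1.76 ± 0.24, a 3.39-fold higher signal, with an adjusted p of 2.07e-04 in limma. Leaving out each array in turn gave differences of 1.55, without STZ replicate 2, to 1.92, without STZ replicate 5.

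Of the 3 enzymes that keep glutathione and thiol proteins reduced, Srxn1 and Gsr rose and Txnrd1 did not pass. Srxn1 (chr2:152105524-152111376), which repairs over-oxidised peroxiredoxins, had 9.292 to 10.273 with a median of 9.665 in STZ livers and 8.775 to 9.253 with a median of 9.002 in control livers. The groups did not overlap, although STZ replicate 5 (9.292) stood only just above control replicate 5 (9.253). The difference was 0.74 ± 0.12, a 1.67-fold higher signal, with an adjusted p of 0.00117 in limma. Gsr (chr8:33653238-33698162), which returns oxidised glutathione to its reduced form with NADPH, had 9.877 to 10.240 with a median of 9.982 in STZ livers and 9.370 to 9.815 with a median of 9.754 in control livers. All STZ arrays lay above all controls, and the difference was 0.35 ± 0.08, a 1.27-fold higher signal, with an adjusted p of 0.0103 in limma. Txnrd1 (chr10:82833951-82897724), the cytosolic thioredoxin reductase, had 9.152 to 9.568 with a median of 9.271 in STZ livers and 8.739 to 9.194 with a median of 9.118 in control livers. Only STZ replicate 5 (9.152) lay within the control range, and the other 5 STZ arrays were above it. The Txnrd1 difference was 0.25 ± 0.08 with an adjusted p of 0.0616 in limma, so it did not pass, and leaving out each array in turn gave adjusted p values of 0.0353, without STZ replicate 5, to 0.135, without STZ replicate 4. It passed in 1 of these 13 fits, the one without the STZ array that lay within the control range.

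The 3 genes that supply glutathione did not pass the test. Gclc (chr9:77754535-77794489), the catalytic subunit of the enzyme that makes the first and limiting step of glutathione synthesis, had 11.475 to 11.924 with a median of 11.718 in STZ livers and 11.304 to 11.893 with a median of 11.487 in control livers. Gclm (chr3:122245487-122267215), its modifier subunit, had 11.762 to 11.971 with a median of 11.805 in STZ livers and 11.643 to 11.852 with a median of 11.763 in control livers. The groups overlapped in both genes, with only STZ replicate 6 above all controls in Gclc and only STZ replicates 2 and 3 in Gclm. The difference of Gclc was 0.11 ± 0.11 with a 95% interval of -0.11 to 0.34 and an adjusted p of 0.628 in limma. The difference of Gclm was 0.08 ± 0.05 with an interval of -0.03 to 0.19 and an adjusted p of 0.471 in limma. Within each array, Gclm minus Gclc averaged 0.14 ± 0.21 (SD, n = 6) in STZ livers and 0.18 ± 0.23 (SD, n = 7) in control livers, a change of -0.04 with a 2-sided exact permutation p of 0.759 over all 1716 splits of the arrays. Slc7a11 (chr3:50364936-50499087), the cystine importer, had 4.261 to 4.896 with a median of 4.596 in STZ livers and 4.436 to 4.631 with a median of 4.624 in control livers. Its mean signal stood at the 12.6th percentile of all genes on these arrays, and without detection calls a signal of this kind cannot be told from background. STZ replicate 5 gave the lowest and STZ replicate 4 the highest value of all 13 arrays, and the difference was 0.01 ± 0.08 with an interval of -0.16 to 0.18 and an adjusted p of 0.963 in limma.

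Hmox1 (chr8:75093618-75100593), which breaks down heme to biliverdin, iron and carbon monoxide, had 8.450 to 9.352 with a median of 9.253 in STZ livers and 8.037 to 8.533 with a median of 8.450 in control livers. STZ replicate 3, at 8.450, lay within the control range, STZ replicate 5, at 8.671, stood just above it, and the other 4 lay between 9.202 and 9.352. The difference was 0.70 ± 0.14, a 1.63-fold higher signal, with an adjusted p of 0.00512 in limma. Hmox1 is also strongly expressed in the macrophages of the liver, and their markers moved with it. Of the 16 Kupffer cell and macrophage markers, 9 rose and 0 fell, at a median difference of 0.40, and the differences of all 16 were above 0 (0.14 to 0.62). The rising ones included the Kupffer cell genes Clec4f (0.31 ± 0.08), Vsig4 (0.41 ± 0.11) and Cd5l (0.62 ± 0.15), with adjusted p values of 0.0257, 0.0216 and 0.0132 in limma. Those that did not pass included Timd4 (0.14 ± 0.09), Adgre1 (0.40 ± 0.14), Marco (0.45 ± 0.15) and Csf1r (0.35 ± 0.11). Their adjusted p values in limma were 0.388, 0.105, 0.0712 and 0.0573. The log2 of the summed signal of the list was 13.05 to 13.78 in STZ livers and 12.90 to 13.36 in control livers. It was lowest among the STZ arrays in STZ replicate 3 (13.05) and next lowest in STZ replicate 5 (13.41), the same 2 arrays in which Hmox1 was low. In the other 4 STZ arrays it was 13.58 to 13.78. The part of macrophages in the Hmox1 result was not tested, and in bulk liver a change in the number of cells of a type and a change of RNA per cell cannot be told apart. Of the erythroid markers 2 of 8 were measured, and Alas2, the heme synthesis enzyme of red cell precursors, fell by 1.58 ± 0.26 (adjusted p = 8.07e-04 in limma). The other, Slc4a1, the anion exchanger of red cells, did not pass (-0.05 ± 0.08, adjusted p = 0.812 in limma).

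**Figure D2:**
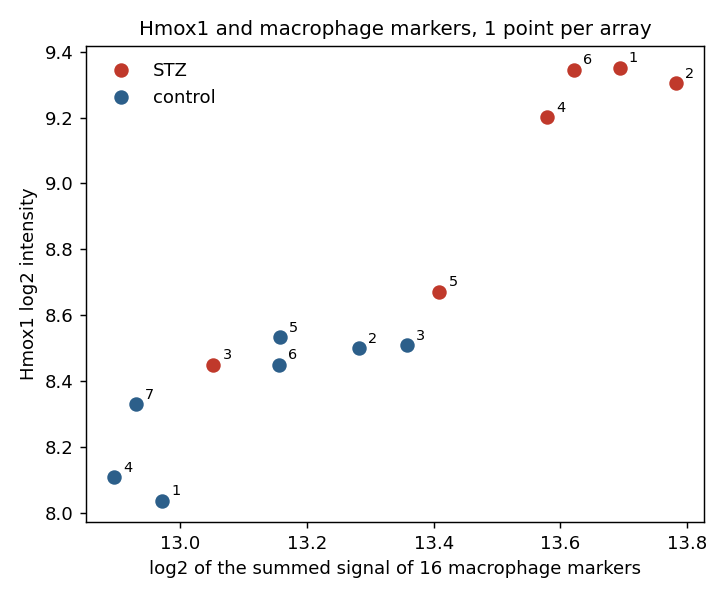
Hmox1 log2 intensity (vertical) against the log2 of the summed signal of 16 macrophage markers (horizontal), 1 point per array, numbered by replicate. STZ replicates 1, 2, 4 and 6 are high on both axes, and STZ replicate 3 lies among the controls on both.

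**Figure D3:**
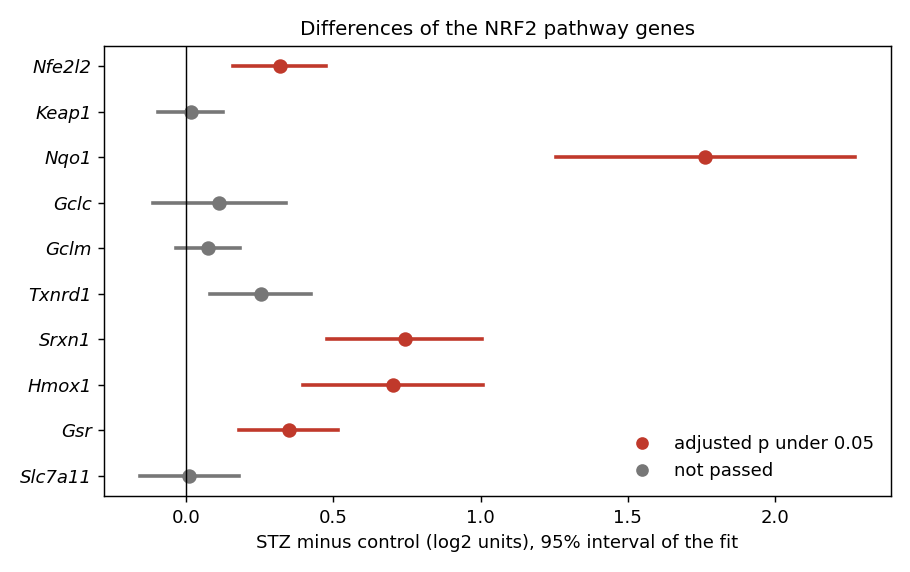
Difference of STZ minus control on the log2 scale for each member, with the 95% interval of the limma fit, in red where the adjusted p was under 0.05. Nqo1 stands apart at 1.76, Srxn1 and Hmox1 lie near 0.7, and the intervals of Keap1, Gclc, Gclm and Slc7a11 include 0.

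Among the STZ livers the members did not all single out the same mouse. STZ replicate 2 gave the highest STZ value for 4 of the 10 members (Nfe2l2, Nqo1, Gclm and Txnrd1) and STZ replicate 4 for 3 (Srxn1, Gsr and Slc7a11). STZ replicate 5 gave the lowest for 5 (Nqo1, Txnrd1, Srxn1, Gsr and Slc7a11). In Nfe2l2 STZ replicate 5, at 11.074, was instead the second highest STZ array. Among the controls, replicate 2 was the lowest for 6 of the 10 members. After the mean of each group was subtracted, the genes most like Nqo1 over the 13 arrays, as a description only, were Atp1b3, a subunit of the sodium pump (Pearson r = 0.92, Spearman rho = 0.87), Txnrd1 (0.91 and 0.95), the ribosome assembly factor Eif6 (0.90 and 0.90), and the phospholipases Pla1a (0.90 and 0.93) and Pla2g12a (0.90 and 0.82). Txnrd1 was thus the only other member among the 5. For Slc7a11 the 5 most alike were Akap6 (0.95 and 0.82), Plekhh1 (0.93 and 0.83), Mmp14 (0.92 and 0.65), Syce1 (0.91 and 0.79) and Hpse (0.91 and 0.85), none of them a member. These likenesses are the highest of 19937 genes compared with each, share the same arrays and preparation, and carry no test. Those of Slc7a11 rest on a signal that cannot be told from background. Its values stood farthest from the control mean in STZ replicates 4 (0.32) and 5 (-0.31), so these 2 arrays weigh most in its Pearson r.

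**Figure D4:**
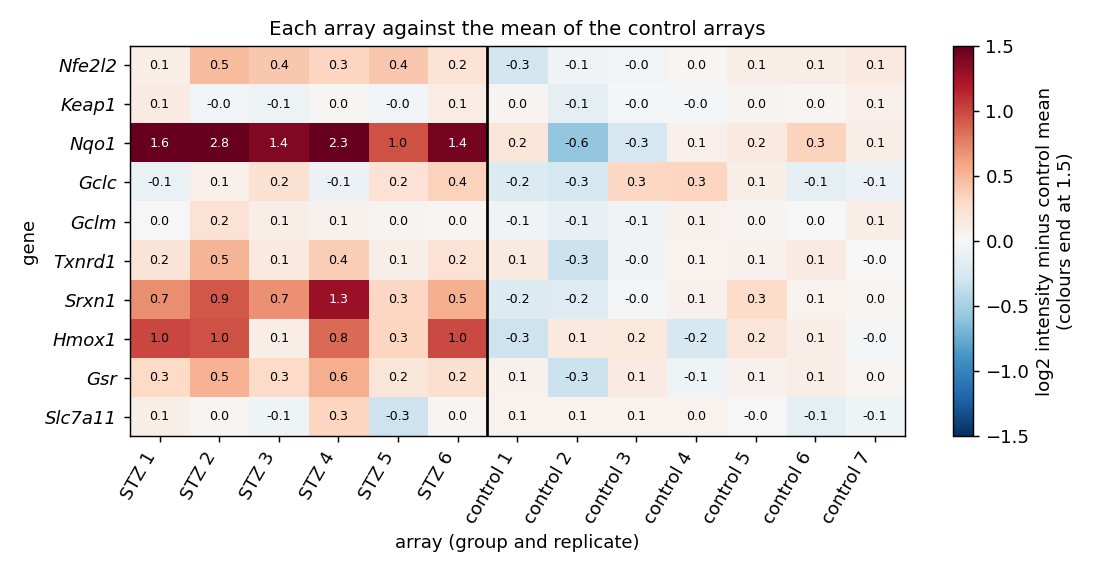
Log2 intensity of each member in each array minus the mean of the 7 control arrays, with STZ arrays left of the line and control arrays right of it. Nqo1 is raised in every STZ array and the rows of Keap1 and Gclm stay near 0 throughout, while Slc7a11 reaches 0.32 in STZ replicate 4 and -0.31 in STZ replicate 5.

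Genes that work beside the members were counted from lists chosen by function, also with earlier results of these data known. Of 19 regulators and partners of NRF2, 3 rose and 0 fell, at a median of 0.05: the small MAF gene Mafk (0.30 ± 0.07), the kinase gene Prkcd (0.28 ± 0.06) and Sqstm1 (0.24 ± 0.06), whose protein p62 binds KEAP1. Of 17 measured glutathione S-transferases, which couple glutathione to reactive compounds, 7 rose and 0 fell, at a median of 0.26, with Gstm3 (0.88 ± 0.11), Gsta4 (0.72 ± 0.08), Mgst3 (0.67 ± 0.13) and Gsto1 (0.50 ± 0.08) in front. Probes of the close Gsta and Gstm paralogs can share signal, so single members are uncertain. Of 21 measured genes of drug metabolism and export linked to NRF2, 8 rose and 0 fell, at a median of 0.22. They were led by the carbonyl reductase Cbr1 (1.17 ± 0.14), the efflux pump Abcc4 (1.11 ± 0.20), Cbr3 (0.77 ± 0.18) and the growth inhibitor Osgin1 (0.67 ± 0.15). Cbr1 averaged 11.03 ± 0.40 (SD, n = 6) in STZ livers and 9.85 ± 0.20 (SD, n = 7) in control livers, with no overlap.

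In the wider glutathione and thioredoxin list, 4 of 24 measured genes rose and 2 fell, at a median of 0.01. Higher were the secreted peroxidase Gpx3 (0.89 ± 0.17), glutathione synthetase Gss (0.67 ± 0.07), glutaredoxin Glrx (0.51 ± 0.09) and Slc3a2 (0.49 ± 0.07), the partner chain of the cystine importer. Gss, which carries out the second step of glutathione synthesis, averaged 9.56 ± 0.20 (SD, n = 6) in STZ livers and 8.90 ± 0.05 (SD, n = 7) in control livers with an adjusted p of 3.90e-05 in limma, while neither subunit of the enzyme before it passed. The glyoxalase Glo1 fell by 0.62 ± 0.08. Txnrd3 fell by 0.33 ± 0.09, a call lost in 4 of 13 fits that each left out 1 array (control replicate 1 and STZ replicates 2, 4 and 6, highest adjusted p = 0.0619 in limma). Of 7 measured genes that supply NADPH, the electron source of Gsr, Txnrd1 and Nqo1, 2 fell and 1 rose, at a median of -0.25. Malic enzyme Me1, a target of NRF2 and also a gene of fat synthesis, averaged 9.88 ± 0.90 (SD, n = 6) in STZ livers and 11.83 ± 0.20 (SD, n = 7) in control livers, and fell by 1.95 ± 0.29 (adjusted p = 4.19e-04 in limma). Isocitrate dehydrogenase Idh1 fell by 0.37 ± 0.06 and the mitochondrial transhydrogenase Nnt rose by 0.20 ± 0.05.

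**Figure D5:**
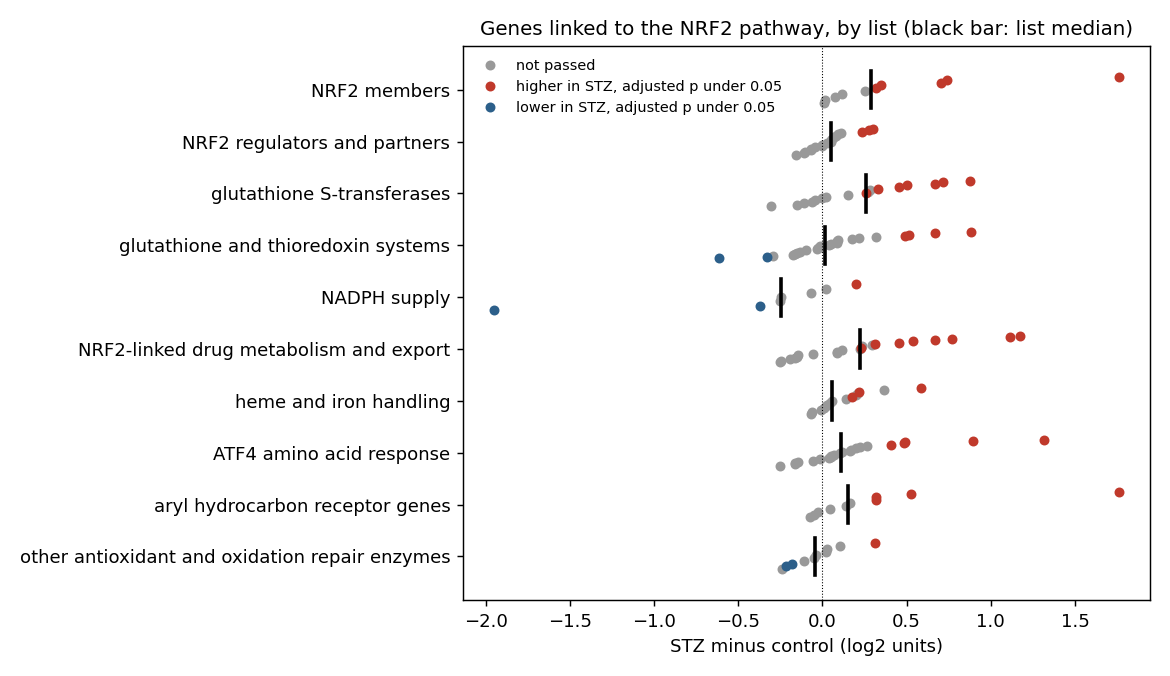
Difference of STZ minus control on the log2 scale for each measured gene of the members and of 9 lists of related genes, coloured by the limma call, with the list median as a black bar. The transferase and drug metabolism lists hold only red and grey points, while the NADPH list holds Me1 at -1.95.

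Of 15 genes of heme and iron handling, 3 rose and 0 fell, at a median of 0.06: the transferrin receptor Tfrc (0.58 ± 0.08), the heme transporter Slc48a1 (0.22 ± 0.06) and the ferritin heavy chain Fth1 (0.18 ± 0.04). Alas2, which fell, was counted with the erythroid markers and is not in this list. Of 22 genes of the ATF4 response, 5 rose and 0 fell, at a median of 0.11. Among the 5 were the lipoprotein receptor Vldlr (1.31 ± 0.23), Sesn2 (0.89 ± 0.08), which restrains mTORC1 under stress, Slc3a2 and Ddit4 (0.49 ± 0.10). Trib3 was the remaining one (0.41 ± 0.09, adjusted p = 0.00676 in limma), with all STZ arrays above all controls. The other 17 did not pass. They included the messenger RNA of Atf4 itself (0.04 ± 0.07) and the amino acid synthesis genes Asns (0.20 ± 0.45), Psat1 (0.05 ± 0.07) and Phgdh (-0.25 ± 0.12). The 95% interval of Asns was wide, from -0.74 to 1.14, so its change was not resolved. These genes are examples, and the part of ATF4 was not tested. Slc7a11, whose upstream sequence above holds the amino acid response element at 2 places, was at 0.01 in the same livers, at a signal near the bottom of the array. Of 10 measured aryl hydrocarbon receptor genes, 4 rose and 0 fell, at a median of 0.15. They were Nqo1 and Nfe2l2, which are members too, the receptor gene Ahr (0.53 ± 0.09) and Cyp1b1 (0.32 ± 0.08). The other 6 did not pass, among them Cyp1a1 (0.16 ± 0.08), Cyp1a2 (0.04 ± 0.11), Tiparp (0.14 ± 0.07) and Ahrr (-0.03 ± 0.06). Cyp1b1 and Cyp1a1 were dim, with mean signals at the 24.3rd and 23.5th percentile of all genes. Of 10 other antioxidant and repair genes, a mixed list of superoxide dismutases and their copper chaperone, catalase, methionine sulfoxide reductases and paraoxonases, 1 rose and 2 fell, at a median of -0.04. Sod1, the cytosolic superoxide dismutase, fell by 0.18 ± 0.05 (adjusted p = 0.0195 in limma). Msrb1, a methionine sulfoxide reductase, fell by 0.22 ± 0.06 and Sod3, the extracellular superoxide dismutase, rose by 0.31 ± 0.09, and these calls were lost in 7 and 10 of the 13 fits that each left out 1 array (highest adjusted p = 0.0831 and 0.0857 in limma).

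The arrays carried 35556 log2 values each, with array medians within 0.09 of each other. Pearson correlations across genes were 0.986 to 0.995 among STZ arrays, 0.993 to 0.997 among control arrays and 0.982 to 0.994 between the groups. Of the 9 measured hepatocyte markers, 1 rose and 2 fell, and their summed signal was 16.22 to 16.27 on the log2 scale in STZ livers and 16.19 to 16.27 in control livers. Of the stellate, cholangiocyte, endothelial, T and B cell and pancreatic markers, 1 of 10, 0 of 7, 1 of 9, 0 of 8 and 0 of 4 rose and 1, 0, 0, 2 and 0 fell. The label numbers of the groups do not overlap, and no batch was given in the sources used here, so a batch that follows the groups cannot be told apart from the treatment. The labels call the arrays biological replicates.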

How the data were processed

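RNA of 13 livers was analysed, 6 STZ and 7 control, grouped by the sample titles. The authors deposited log2 intensities for 35556 probe sets. The submitters' processing notes name Expression Console 1.2 and robust multi-array average (RMA). RMA gives the arrays a common distribution, so an overall change in RNA amount would not be seen, and dim genes are compressed. The sources used here give no genome build, annotation version or detection call. The precision is limited by the number of arrays.

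The platform annotation named the probe sets, with 1 symbol for 21789 probe sets, several for 1621 and none listed for 12146. Symbols of 21698 were found in RefSeq (GRCm38.p6) by Entrez identifier. Where a gene had several probe sets, the brightest on average over the 13 arrays was kept, without a filter on dim genes. The test of STZ against control used lmFit and eBayes of limma 3.58.1 (R 4.3.3), 2-sided, with Benjamini-Hochberg adjustment over 19938 genes and a threshold of 0.05. The 10 members and all lists were chosen with earlier results of these data known. Named were all members and, per functional list, up to 4 passing genes with the largest difference in each direction. Some genes that did not pass are also given for the ATF4 and aryl hydrocarbon receptor lists, as is Trib3, the remaining passing gene of the ATF4 list. The fit was tested on simulated arrays, where 96% of 100 genes changed by 0.5 and 99% of 100 changed by 1 were recovered, with 5 wrong calls among the unchanged of 19938 genes. Recovery of changes under 0.5, the size of Gsr, Nfe2l2 and the members that did not pass, is not given by these values. Alternatives were a brightness filter, trend and robust variance, array weights, median centring, repeated quantile normalization, the mean of all probe sets, the exact rank-sum test, a replicate block, the 4 STZ arrays labelled 29 to 32, and leaving out each array.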

Additional observations from a re-analysis of the deposited data

Results flagged for a closer look

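Control replicate 2 stood far below the other control arrays in 2 members. Txnrd1 was 8.739 in that array, against 9.015 in the next lowest control. Keap1 was 8.146 there, against 8.275 in the next lowest. Among 22 groups of arrays examined in this way, chance flags about 1 in 20. Without control replicate 2 the Txnrd1 difference was 0.20 with an adjusted p of 0.0961 in limma, and the Keap1 difference was -0.0085 with an adjusted p of 0.96. No cause was tested.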

How the results depend on the processing

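Calls of Nqo1 and Srxn1 held under all 22 alternatives, and those of Nfe2l2, Hmox1 and Gsr under all but 1 each. Each member has 1 probe set, so the mean of all probe sets could not change its difference and is no separate check. The rank-sum test called 3 members higher, and in it Nfe2l2 (adjusted p = 0.0525) and Hmox1 (0.0985) did not pass; over all genes it called 623 higher and 465 lower, against 1014 and 805 in limma. Arrays of the 2 groups with the same replicate number share only that number: deviations of same-numbered arrays correlated at -0.09 to 0.19, over 0.1 in 2 of 6 pairs, and 2 of 12 arrays correlated best with their own number. With the replicate block, 4 members were higher and 0 lower (Gsr was 0.35 with an adjusted p of 0.0638), and 732 genes were higher and 524 lower. Txnrd1 passed among genes brighter than the median gene (adjusted p = 0.0414), without STZ replicate 5 (0.0353) and with the 4 STZ arrays labelled 29 to 32 (0.0476), and its highest adjusted p, with the replicate block, was 0.184. Leaving out 1 array gave 5 to 6 members higher and 0 lower, and 761 to 1146 genes higher and 625 to 1022 lower. Differences near 0 changed sign: Keap1 was -0.0085 without control replicate 2, -0.00549 without STZ replicate 1 and -0.00289 without STZ replicate 6, and Slc7a11 was -0.0115 without control replicate 6, -0.0042 without STZ replicate 1 and -0.0502 without STZ replicate 4, and their ranges with 1 array left out reached 0.0341 and 0.0768. Gclm minus Gclc was -0.10 to 0.02 when 1 array was left out, with the sign changed without STZ replicate 6 (0.0209), 0.0714 with the 4 STZ arrays and -0.0075 with the replicate block. The causes were not tested. Of the 31 passing genes named from the functional lists, outside the members and leaving out Trib3, 14 kept their call under every alternative run. The other 17 lost it in at least 1, and 0 changed sign. Signal over background was not available, which limits Slc7a11 most.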
